A study of Homo sapiens with 6 samples.

Results

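The transcripts of 9 target genes of p53 were examined in H7 human embryonic stem cells (hESCs) with and without S6K1. The genes were MDM2, CDKN1A, GDF15, SESN1, SESN2, ZMAT3, FAS, TP53INP1 and RRM2B. They were taken by symbol from a table of counts for 61155 genes, and each symbol was found. All 9 were among the 19521 genes with enough counts to be tested. Bulk RNA sequencing compared 3 libraries of wild-type (WT) H7 cells with 3 libraries of S6K1-/- cells, in which the gene RPS6KB1 had been cut at exons 9 and 11 with CRISPR/Cas9. H7 is an established hESC line, and both groups were grown without feeder cells on Matrigel in TeSR-E8 medium. The S6K1-/- libraries come from 1 clone, so genotype and clone cannot be told apart. The sample labels give a time of week 5 and call the genotype a knockdown, whereas the methods describe undifferentiated cells and a knockout. No source used here states that replicates were separate cultures, so the p-values measure only the spread between these libraries. In bulk RNA, fewer cells that express a gene and less of its RNA per cell cannot be told apart.

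p53 is a transcription factor that is kept low by MDM2, a ubiquitin ligase, and accumulates after DNA damage and other stress. It then raises the transcription of genes that halt the cell cycle, repair DNA, supply nucleotides, restrain growth signals or start cell death, and also of MDM2, which closes a negative feedback loop. The sestrins SESN1 and SESN2 connect p53 to the pathway of S6K1, since they hold back mTORC1, the kinase complex that activates S6K1.

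The libraries held from 21896698 to 24473013 counts. RPS6KB1 had 831, 791 and 777 counts in WT and 464, 464 and 438 counts in S6K1-/- replicates 1, 2 and 3. Over all genes tested, 496 were lower and 278 were higher in S6K1-/- cells at an adjusted p under 0.001 (quasi-likelihood test of edgeR, Benjamini-Hochberg adjustment), the threshold of the study. Of 12 markers of undifferentiated hESCs, all were tested, and their summed level was 7715 to 7888 CPM (counts scaled to the size of the library) in WT and 7240.4 to 7338 CPM in S6K1-/- libraries, with 1 lower and 1 higher at 0.001 and 5 (41.7%) past 0.05, against 13.8% of all genes. The markers of mesenchyme (10 genes, of which 5 had at most 3 counts in every library) summed to 627 to 645 CPM and 541 to 561 CPM, respectively. Of the 5 tested, 3 were lower at 0.001 (60.0%, against 2.54% of all genes), with a median log2 fold change of -0.53. Those of endoderm summed to 22.1 to 25.9 CPM and 18.93 to 19.97 CPM, with 1 of 7 tested lower at 0.001 (14.3%, against 2.54% of all genes) and a median log2 fold change of -0.74. At 0.05, 3 of the 7 were lower and 1 was higher (57.1%, against 13.8% of all genes), and with DESeq2 2 passed 0.001, where 4.32% of all genes did. Those of amnion and trophoblast summed to 23.8 to 25.9 CPM and 20.4 to 22.7 CPM, with none of 4 past 0.001 with edgeR, 1 with DESeq2 and 1 at an unadjusted p under 0.05. Those of neuroectoderm summed to 490 to 512 CPM and 477 to 497 CPM, with 1 of 6 tested lower and 1 higher at 0.001 (33.3%, against 3.96% of all genes) and log2 fold changes from -0.54 to 1.29. The part of these shifts in the values of the p53 targets was not tested.

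p53 binds DNA as a tetramer, at a pair of sites of 10 bases each. To show the kind of sequence through which these genes are linked to p53, the region within 3000 bases on either side of the transcription start of each gene was searched for the p53 consensus element. The pair was taken without a spacer, and the C and the G of each core were required. The element is its own reverse complement, so that 1 search covers both strands. The closest match of each gene with one in GRCh38 is shown 5′ to 3′ along the gene, with bases 4 to 7 of each site, its core, in capitals, except for that of RRM2B, which is not printed.
CDKN1A, upstream of the start, chr6:36676449-36676468, plus strand: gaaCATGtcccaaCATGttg
MDM2, in an intron, chr12:68808923-68808942, plus strand: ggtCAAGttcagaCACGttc
FAS, in an intron, chr10:88991309-88991328, plus strand: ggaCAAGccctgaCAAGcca
GDF15, upstream of the start, chr19:18385308-18385327, plus strand: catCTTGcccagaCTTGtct
ZMAT3, in an intron, chr3:179070188-179070207, minus strand: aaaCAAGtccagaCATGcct

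The match of ZMAT3, which encodes a zinc finger protein that binds RNA, had 0 mismatches to the consensus and began 1602 bases after the start. Only 10 of 13794 protein-coding genes scanned held such a match (0.0725%). The matches of CDKN1A, MDM2, FAS and GDF15 had 2 mismatches each and began at -2265, 746, 511 and -850 bases from the start. RRM2B had a match with 1 mismatch in an intron, 2102 bases after the start. SESN1, SESN2 and TP53INP1 had none with up to 3 mismatches in these windows. With up to 2 mismatches, 6 of the 9 genes held a match, against 4.55% of all genes scanned and 27 of 92 other p53 targets (29.3%). The genes were chosen as targets of p53, so the matches describe them and are no result of the comparison. A match is no proof of binding in these cells, and a window without one leaves other sites unexamined.

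**Figure D1:**
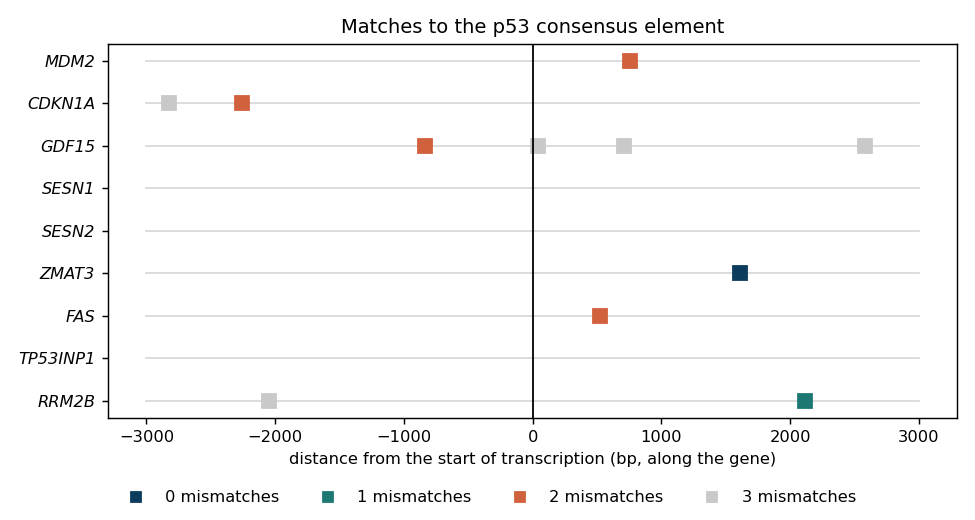
Positions of matches to the p53 consensus element within 3000 bp of the transcription start of each gene, with the number of mismatches by colour. The match with 0 mismatches lies in ZMAT3 at 1602 bp, and SESN1, SESN2 and TP53INP1 have no match with up to 3 mismatches.

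None of the 9 p53 target genes passed the threshold of 0.001 between S6K1-/- and WT hESCs, where 3.96% of all genes tested passed it. FAS, which encodes a death receptor, was the gene with the largest difference, 1.51 ± 0.169 CPM in S6K1-/- against 2.404 ± 0.305 CPM in WT (SD, n = 3 each). The others differed by at most 11.1% in the fit. CDKN1A, SESN1, TP53INP1 and RRM2B had lower means in S6K1-/- cells, and SESN2 had a higher mean. The fitted changes of MDM2, GDF15 and ZMAT3 from WT were 0.553%, -1.47% and -2.75%. At an adjusted p under 0.05, 1 of the 9 genes passed with edgeR, FAS, against 13.8% of all genes tested, and 0 passed with DESeq2's Wald test, against 9.82% of all genes. At an unadjusted p under 0.05, 6 of 9 passed with edgeR and 4 of 9 with DESeq2, against 26.4% and 19.5% of all genes tested, respectively. No library of either group fell within the range of the other for 5 of the 9 genes, against 30.7% of all genes tested. Of these, 4 were lower in S6K1-/- cells, against 16.7% of all genes, and 1 was higher, against 14.0%.

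**Figure D2:**
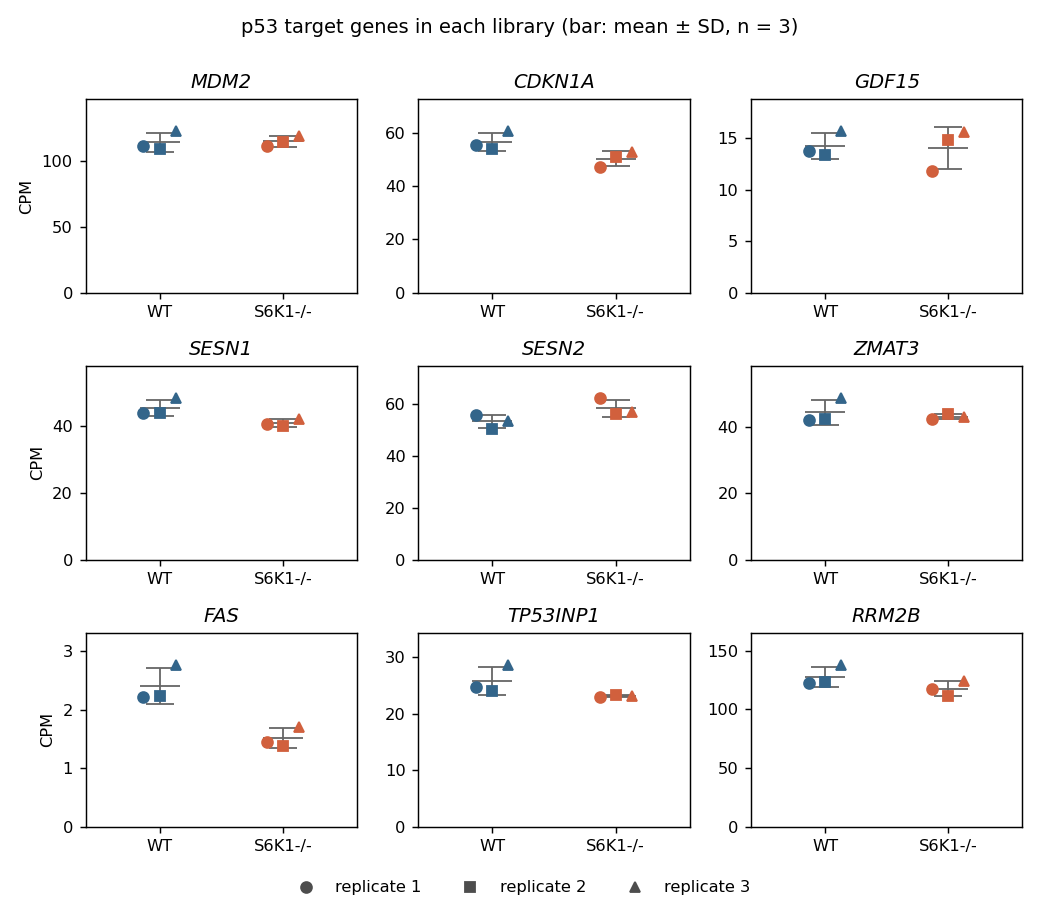
Level of each of the 9 genes in each library, in CPM on axes that start at 0, with symbols for replicates and bars for the mean ± SD of 3 libraries per group. FAS had 2.22, 2.24 and 2.76 CPM in WT and 1.45, 1.38 and 1.70 CPM in S6K1-/- libraries, while the MDM2 libraries of both groups lie between 109 and 123 CPM.

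MDM2, the ubiquitin ligase of the feedback loop, lies at chr12:68808177-68845544 on the plus strand. It had 2709, 2683 and 2847 counts in WT and 2613, 2737 and 2596 counts in S6K1-/- libraries. These correspond to 111, 109 and 123 CPM in WT and to 111, 114 and 119 CPM in S6K1-/- cells. The groups overlapped, and all S6K1-/- libraries lay within the range of WT. The log2 fold change was 0.0080 (standard error, SE, 0.0483, 95% interval -0.095 to 0.11, adjusted p = 0.942). The interval corresponds to a level from 6.38% lower to 8.0% higher than in WT. The intervals given here and below are for each gene alone, without adjustment for the number of genes. Exons of MDM2 share 133 bases with the carboxypeptidase M gene and 785 bases with a long non-coding RNA gene on the opposite strand, and 439 bases with a processed pseudogene on the same strand.

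CDKN1A encodes p21, the inhibitor of cyclin-dependent kinases through which p53 halts the cell cycle. It lies on the plus strand of chromosome 6, with the element shown above upstream of its start, and its exons share 146 bases with a long non-coding RNA gene, DINOL, on the opposite strand. It had 55.5, 54.1 and 60.6 CPM in WT and 47.4, 50.9 and 53.01 CPM in S6K1-/- libraries, from 1113 to 1408 counts. Every S6K1-/- library was below every WT library. The gap between the nearest libraries, 53.01 and 54.1 CPM, was smaller than the SD within either group (3.41 CPM in WT and 2.83 CPM in S6K1-/- cells). S6K1-/- against WT gave a log2 fold change of -0.17 (SE 0.0549, 95% interval -0.29 to -0.053, adjusted p = 0.0528). Without WT replicate 3 it was -0.11 (adjusted p = 0.246 from edgeR), and without WT replicate 2 it was -0.20 (adjusted p = 0.0292 from edgeR). With all 6 libraries, its adjusted p from edgeR was 0.0198 without the filter on low counts and 0.0491 with at least 10 counts in every library. It was 0.0269 from edgeR with a replicate block, 0.0621 from edgeR with DESeq2 size factors and 0.11 with DESeq2's Wald test. Its side of 0.05 therefore depended on the filter and the model.

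The sestrins had differences of opposite sign. SESN1 had 43.99, 43.97 and 48.3 CPM in WT and 40.7, 40.0 and 42.3 CPM in S6K1-/- libraries. SESN2 had 55.7, 50.4 and 53.5 CPM in WT and 62.1, 56.0 and 56.7 CPM in S6K1-/- libraries. For neither gene did the groups overlap, SESN1 being lower and SESN2 higher in each S6K1-/- library, but the nearest SESN2 libraries of the groups were 55.7 and 56.0 CPM. The log2 fold change was -0.15 for SESN1 (SE 0.0525, 95% interval -0.26 to -0.036, adjusted p = 0.0775). It was 0.13 for SESN2 (SE 0.0528, 95% interval 0.018 to 0.24, adjusted p = 0.123), so that neither passed either threshold. Without WT replicate 3, SESN1 was at -0.096 (adjusted p = 0.310 from edgeR), and without S6K1-/- replicate 1, SESN2 was at 0.083 (adjusted p = 0.442 from edgeR). Without WT replicate 2, SESN1 was at -0.17 (adjusted p = 0.0627 from edgeR), and without WT replicate 1, SESN2 was at 0.17 (adjusted p = 0.0781 from edgeR). Exons of SESN1 share 363 bases with a long non-coding RNA gene on the opposite strand.

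The ratio of SESN2 to SESN1 within a library does not depend on the scaling of libraries, and it was compared after the values had been seen. Its log2 was 0.34, 0.20 and 0.15 in WT and 0.61, 0.48 and 0.42 in S6K1-/- libraries. Each S6K1-/- library was above each WT library. The means were 0.23 ± 0.0999 and 0.51 ± 0.0953 (SD, n = 3 each), a difference of 0.28 or 1.21-fold. The pair was chosen for its opposite differences, so this separation is a description, and no p-value is given for it.

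FAS had the lowest level of the 9 genes, with 54, 55 and 64 counts in WT and 34, 33 and 37 counts in S6K1-/- libraries. All S6K1-/- libraries were below all WT libraries, with 1.70 CPM at most against 2.22 CPM at least. On the log2 scale, the fold change was -0.67 (SE 0.176, 95% interval -1.05 to -0.30, adjusted p = 0.0183). The adjusted p was 0.101 with DESeq2's Wald test, and 0.0929, 0.0664 and 0.0710 from edgeR without WT replicate 3, S6K1-/- replicate 1 and S6K1-/- replicate 2. The canonical transcript of FAS lies at chr10:88990798-89017059 on the plus strand. The exons of all annotated FAS transcripts together cover 29313 bases. They overlap exons of ACTA2 on the opposite strand by 387 bases and of STAMBPL1 on the same strand by 166 bases. An unnamed long non-coding RNA gene on the opposite strand shares 1899 bases with these FAS exons. ACTA2, which encodes smooth muscle actin, had 22, 27 and 16 counts in WT and 8, 6 and 8 counts in S6K1-/- libraries. STAMBPL1, a deubiquitinase gene, had 89, 88 and 89 counts in WT and 66, 44 and 36 counts in S6K1-/- libraries. The strand setting of the counting is not given in the sources used here, and whether reads of these neighbours bear on the FAS counts was not tested.

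RRM2B, on chromosome 8, encodes the p53-inducible small subunit of ribonucleotide reductase, which supplies deoxynucleotides for DNA repair. It had 123, 123 and 138 CPM in WT and 117, 112 and 124 CPM in S6K1-/- libraries. S6K1-/- replicate 3 was above WT replicates 1 and 2, so the groups overlapped. The log2 fold change was -0.12 (SE 0.0520, 95% interval -0.23 to -0.0067, adjusted p = 0.162). Without WT replicate 3 it was -0.055 (adjusted p = 0.573 from edgeR), and without WT replicate 2 it was -0.14 (adjusted p = 0.0986 from edgeR).

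TP53INP1, also on chromosome 8, encodes a nuclear protein with roles in p53-dependent cell death and in autophagy. It had 24.8, 24.0 and 28.6 CPM in WT and 23.04, 23.4 and 23.1 CPM in S6K1-/- libraries. The S6K1-/- libraries were nearly alike (SD 0.186 CPM) and below the WT libraries (SD 2.46 CPM), of which replicate 3 lay highest. S6K1-/- against WT gave a log2 fold change of -0.15 (SE 0.0694, 95% interval -0.30 to -0.0044, adjusted p = 0.177). Without WT replicate 3 it was -0.066 (adjusted p = 0.593 from edgeR), and without WT replicate 2 it was -0.20 (adjusted p = 0.0826 from edgeR). Exons of TP53INP1 share 225 bases with the protein-coding gene NDUFAF6 on the opposite strand. NDUFAF6 had 265, 268 and 292 counts in WT and 228, 230 and 229 counts in S6K1-/- libraries. Whether its reads bear on the TP53INP1 counts was not tested.

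ZMAT3 had 42.0, 42.4 and 48.6 CPM in WT and 42.4, 43.8 and 43.0 CPM in S6K1-/- libraries. All S6K1-/- libraries lay between WT replicates 1 and 3. Its log2 fold change came to -0.040 (SE 0.0579, 95% interval -0.16 to 0.083, adjusted p = 0.720).

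GDF15 encodes a secreted cytokine of the TGFβ superfamily that rises in many kinds of cell stress, through p53 or through ATF4. It had 13.8, 13.3 and 15.7 CPM in WT and 11.8, 14.8 and 15.6 CPM in S6K1-/- libraries. S6K1-/- replicate 1 was the lowest and WT replicate 3 the highest of the 6 libraries, and the groups overlapped. On the log2 scale, the fold change was -0.021 (SE 0.0979, 95% interval -0.23 to 0.19, adjusted p = 0.922), so a difference of up to 14.8% lower or 13.9% higher lies within its interval.

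**Figure D3:**
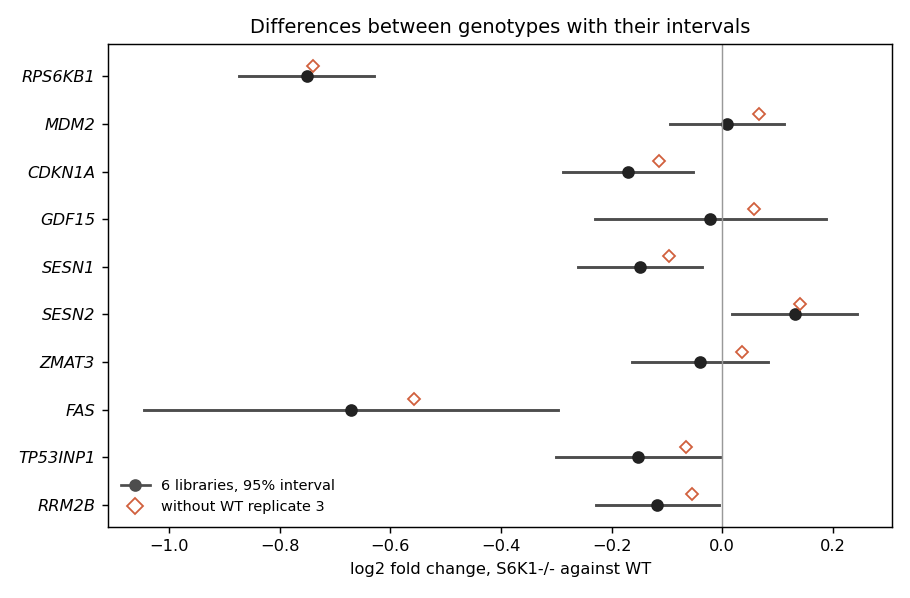
Log2 fold change of S6K1-/- against WT hESCs for RPS6KB1 and the 9 p53 target genes, with points and 95% intervals from 6 libraries and open diamonds for the fit without WT replicate 3. RPS6KB1 lies at -0.75 and FAS at -0.67, the other genes lie between -0.17 and 0.13, and the diamonds of MDM2, GDF15 and ZMAT3 lie above 0.

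Per kilobase of the canonical transcript, the WT levels ran from 26.8 ± 1.61 CPM per kilobase for CDKN1A to 0.650 ± 0.0824 CPM per kilobase for FAS (SD, n = 3 each). RRM2B followed CDKN1A with 26.8 ± 1.78, and the WT libraries of this pair overlapped. SESN2 (15.4 ± 0.763) and MDM2 (15.3 ± 0.963) came next and overlapped as well. Below them were GDF15 with 11.9 ± 1.03 and SESN1 with 8.02 ± 0.440 CPM per kilobase, each apart from its neighbours in this order. ZMAT3 (4.96 ± 0.412) and TP53INP1 (4.6 ± 0.439) overlapped. In S6K1-/- cells the order was the same except that RRM2B, with 24.7 ± 1.31, came before CDKN1A, with 23.8 ± 1.34 CPM per kilobase, a difference within their SD. The order rests on the canonical lengths, while all annotated exons cover 29313 bases for FAS, against 3696, and 2087 for GDF15, against 1200. Reads were aligned without crossing splice junctions, and how this bears on genes with different numbers of exons was not tested.

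WT replicate 3 held the highest WT value of 8 of the 9 genes, the exception being SESN2. Over all genes tested it was the highest WT library for 32.6%, and over 94 other p53 targets for 44 (46.8%). S6K1-/- replicate 3 was the highest library of its group for 6 of the 9 genes, for 47 of the 94 other targets (50.0%) and for 34.0% of all genes. With 6 libraries, 7 of the 9 genes had a log2 fold change below 0, and the median was -0.12, against 50.6% of all genes tested and a median of 0.0. Without WT replicate 3 there were 5 such genes, and the median was -0.05, against 49.1% of all genes. Since WT replicate 3 was the highest WT library for 8 of the 9 genes, leaving it out raises their fold changes by construction. None of the 9 genes passed an adjusted p of 0.05 without that library, where 10.2% of all genes did.

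**Figure D4:**
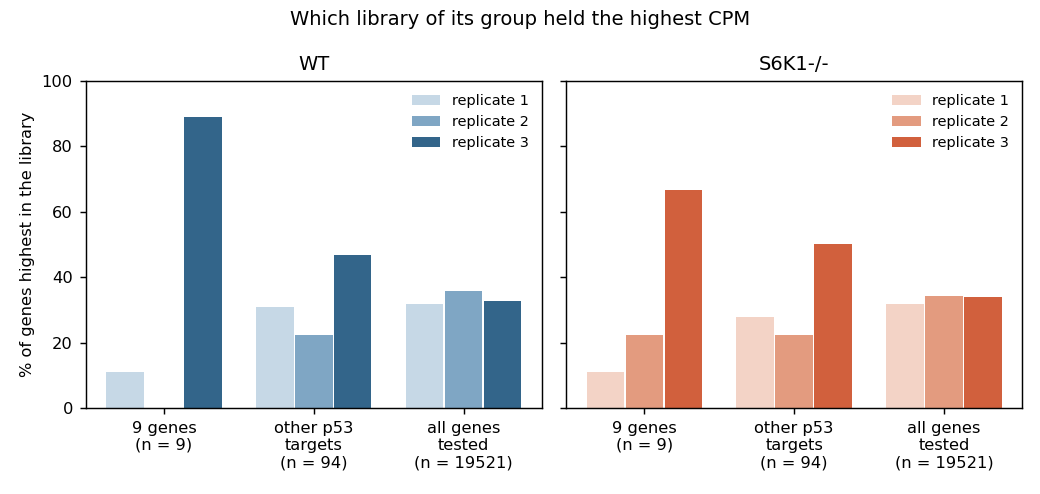
Share of genes, in percent, for which each library held the highest CPM of its group, for the 9 genes, the 94 other p53 targets and all 19521 genes tested. Replicate 3 held 88.9% of the 9 genes in WT and 66.7% in S6K1-/- cells, whereas the libraries of each group took between 31.7% and 35.7% of all genes.

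To place the 9 genes among the other known targets, a list of 110 direct p53 targets was sorted by role. Of these, 103 were tested, the 9 genes included. At an adjusted p under 0.001, 5 of the 103 were lower in S6K1-/- cells, where 2.54% of all genes were lower, and 1 was higher, where 1.42% were higher. At an adjusted p under 0.05 the numbers were 17 lower and 4 higher, where 8.31% and 5.47% of all genes were lower and higher. Of the 103, 73 (70.9%) had a log2 fold change below 0, and the median was -0.06. Without WT replicate 3, 2 of 104 targets (1.92%) passed 0.001, where 2.64% of all genes did, and 16 (15.4%) passed 0.05, where 10.2% of all genes did. Of the 104, 59.6% were below 0, against 49.1% of all genes, with a median of -0.04.

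Among 13 targets that restrain the cell cycle, 1 fell and 1 rose (7.69% each), against 2.54% and 1.42% of all genes. BTG2, an antiproliferative gene, had 348, 326 and 398 counts in WT and 212, 224 and 220 counts in S6K1-/- libraries, a log2 fold change of -0.65 (SE 0.0962, adjusted p = 2.56e-04). RPRM, which encodes Reprimo, a mediator of arrest in G2 phase, rose from 294, 306 and 292 counts to 364, 396 and 376 counts, a log2 fold change of 0.41 (SE 0.0701, adjusted p = 8.89e-04). The groups did not overlap for either gene, but BTG2 missed 0.001 without WT replicate 3 or any S6K1-/- replicate. RPRM missed it in each fit that left out a library and with DESeq2's Wald test (adjusted p = 0.00106).

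Of 22 targets that act in cell death, none passed 0.001 with edgeR or DESeq2. With edgeR, 4 (18.2%), FAS among them, were lower at an adjusted p under 0.05, against 8.31% of all genes. With DESeq2's Wald test, 1 of the 22 passed 0.05, where 9.82% of all genes did. At an unadjusted p under 0.05 with edgeR, 8 of the 22 passed (36.4%), against 26.4% of all genes. Among 9 targets filed under DNA repair and nucleotide supply, 1 fell (11.1%), against 2.54% of all genes. This was TRIM22, an interferon-inducible ubiquitin ligase gene that is no repair gene, with 690, 699 and 702 counts in WT and 404, 411 and 392 counts in S6K1-/- libraries. Its log2 fold change was -0.73 (SE 0.0604, adjusted p = 6.54e-07). This was the largest difference among the p53 targets past 0.001, and it stayed past 0.001 in each fit that left out a library.

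Of 21 targets with roles in metabolism and autophagy, 2 fell (9.52%), against 2.54% of all genes. PLTP, which encodes phospholipid transfer protein, fell from 2440, 2462 and 2333 counts to 1937, 1936 and 1766 counts, a log2 fold change of -0.30 (SE 0.0380, adjusted p = 6.03e-05). ABHD4, a lipase gene, fell from 56.2 ± 0.666 to 46.6 ± 0.241 CPM (SD, n = 3 each), or by 0.27 on the log2 scale (SE 0.0428, adjusted p = 4.84e-04), and missed 0.001 in each fit that left out a library and with a replicate block (adjusted p = 0.00121). Of the remaining 38 targets, with roles in feedback, RNA, secretion and signalling, STEAP3 fell (2.63%, against 2.54% of all genes) and none rose. STEAP3, a metalloreductase gene of iron uptake, had a log2 fold change of -0.39 (SE 0.0572, adjusted p = 2.27e-04), and passed 0.001 in 1 of the 6 fits with 5 libraries, the one lacking WT replicate 2.

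**Figure D5:**
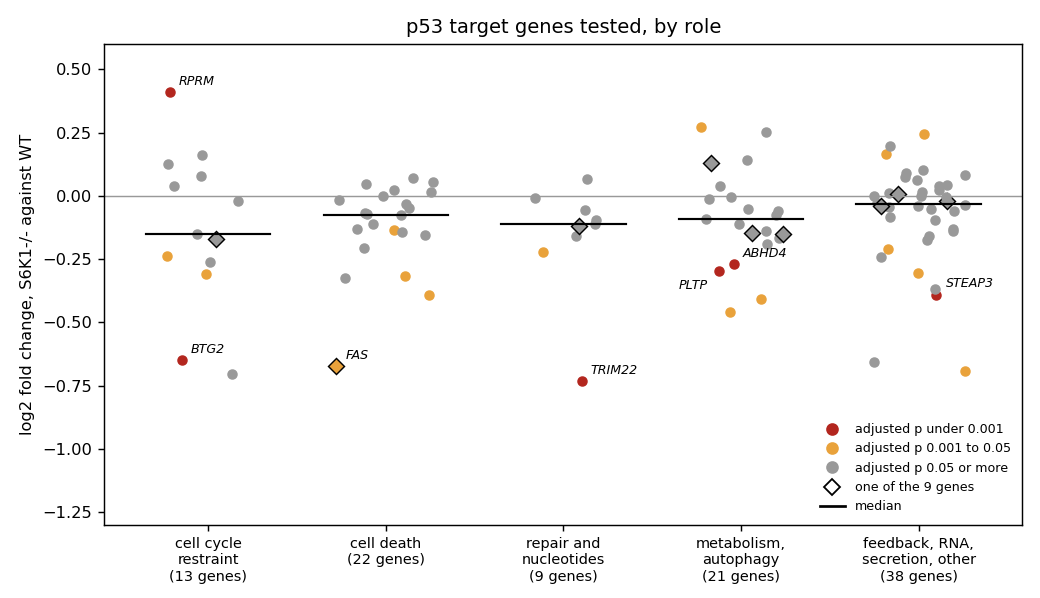
Log2 fold change of S6K1-/- against WT hESCs for each of 103 p53 targets tested, by role, with colours for the adjusted p, diamonds for the 9 genes and lines for the median of each role. BTG2 at -0.65, TRIM22 at -0.73, PLTP, ABHD4 and STEAP3 were lower and RPRM at 0.41 was higher at an adjusted p under 0.001, and the medians run from -0.15 to -0.03.

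Of 37 regulators of p53 tested, which hold its ubiquitin ligases, kinases, cofactors and family members, 1 was higher and none was lower at an adjusted p under 0.001, or 2.7% against 3.96% of all genes. This was HIPK2, which encodes a kinase that phosphorylates p53, with 87.4, 74.2 and 80.9 CPM in WT and 112, 111 and 95.6 CPM in S6K1-/- libraries. The groups did not overlap, and the log2 fold change was 0.39 (SE 0.0640, adjusted p = 6.10e-04). It missed 0.001 in 4 of the 6 fits that left out a library, with an adjusted p from 0.00151 to 0.00492 in these. The regulators had a median log2 fold change of 0.04, and 10 of 37 (27.0%) were below 0, against 50.6% of all genes.

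The cell cycle genes that fall when p53 acts through p21 were represented by 32 genes, of which none passed 0.001 with edgeR or DESeq2 after the filter on low counts. Without that filter, BUB1 passed with edgeR (adjusted p = 4.48e-04). With edgeR and the filter, 8 of the 32 had an unadjusted p under 0.05, against 26.4% of all genes. Of the 32 genes, 7 (21.9%) had a value below 0, against 50.6% of all genes, and the median on the log2 scale was 0.04. BUB1, a kinase of the spindle checkpoint, was at -0.19 (adjusted p = 0.00620), NEK2, a centrosomal kinase, at 0.23 (adjusted p = 0.0192) and TOP2A, a DNA topoisomerase, at 0.14 (adjusted p = 0.0282).

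SESN2 and GDF15 are also targets of ATF4, the transcription factor of the integrated stress response. Of 25 ATF4 targets tested, these included, 1 was lower and none was higher at an adjusted p under 0.001, where 2.54% and 1.42% of all genes were lower and higher. At an adjusted p under 0.05, 3 were lower and 4 were higher, where 8.31% and 5.47% of all genes were. With DESeq2's Wald test, 2 passed 0.001, where 4.32% of all genes did, namely VLDLR and SLC7A5 (adjusted p = 3.18e-05 for SLC7A5). Without the filter on low counts, TRIB3 and SLC7A5 also passed 0.001 with edgeR (adjusted p = 5.37e-04 and 3.93e-04). On the log2 scale, 11 of the 25 were below 0, around a median of 0.03. VLDLR, a lipoprotein receptor gene, fell by 0.50 on the log2 scale (SE 0.0495, adjusted p = 4.65e-06), while TRIB3, a pseudokinase gene, was at -0.40 (adjusted p = 0.00478) and SLC7A5, an amino acid transporter gene, at 0.19 (adjusted p = 0.00423).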

How the data were processed

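Total RNA of undifferentiated H7 hESCs was sequenced from stranded poly(A) libraries as paired reads. According to the methods and the labels, the authors trimmed reads with Trim Galore 0.6.5, aligned them to GRCh38 with Bowtie2 2.4.5, which does not align across splice junctions, and obtained counts with featureCounts. The authors deposited whole-number counts per gene symbol without normalization. Neither annotation release nor strandedness of the counting is given in the sources used here. A deposited table of the authors' DESeq2 comparison (means, fold changes, statistics and p-values) was not used.

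Genes were kept with filterByExpr (19521 of 61155), scaled by TMM and tested with edgeR's quasi-likelihood test (version 4.0.16, R 4.3.3). The model held genotype alone, with Benjamini-Hochberg adjustment over all genes tested. Adjusted p-values are from this test unless another tool is named. Standard errors are the log2 fold change over the square root of F, and 95% intervals used 14.7 degrees of freedom. CPM are counts scaled by the TMM library size. Replicate libraries differed by more than counting noise (reduced chi-square 2.23 to 4.51). The steps were tested on simulated data. Positions and lengths are from GENCODE 44 on GRCh38, with the canonical transcript of each gene. Overlaps with other genes were counted over the exons of all annotated transcripts.

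The genes and lists were chosen with earlier results of these data known, from general knowledge. Of p53 targets and regulators, up to 6 genes per list and direction past 0.001 were named, and of the cell cycle and ATF4 lists the 3 with the smallest adjusted p. The transcript of p53 itself is not reported here. Alternatives were size factors and the Wald test of DESeq2 1.42.0, no filter, at least 10 counts in every library, a replicate block, each library left out, and a threshold of 0.05.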

Additional observations from a re-analysis of the deposited data

How the results depend on the processing

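Of the 9 genes, 0 passed an adjusted p of 0.001 under the size factors and the Wald test of DESeq2, both other filters on low counts, the replicate block and each library left out, and 1 passed with a threshold of 0.05. The log2 fold change of MDM2, GDF15 and ZMAT3 changed sign with 1 library left out, over ranges of -0.024 to 0.067, -0.091 to 0.092 and -0.070 to 0.036, while the other 6 genes kept their sign under all alternatives. Without the filter on low counts, 982 genes were lower and 591 higher, 10 p53 targets were lower and 3 higher, and 3 regulators passed. The main fit gave 496 and 278 genes, 5 and 1 targets, and 1 regulator. More genes were tested without the filter, and shares of the genes tested were not computed for that setting. With a threshold of 0.05, 1622 genes were lower and 1067 higher, 17 targets were lower and 4 higher, and 5 regulators passed. With 1 library left out, from 313 to 445 genes were lower and from 175 to 235 higher, from 2 to 5 targets were lower and 0 were higher, and from 0 to 1 regulators passed. The number of higher targets was 0 also with DESeq2's Wald test, with at least 10 counts in every library and with the replicate block. The cause of these shifts was not tested.

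The replicate numbers are given in the labels without a shared batch, so same-numbered libraries were not taken as pairs. Their deviations from the group means correlated at 0.197, 0.103 and 0.082 over 10484 genes. Those of differently numbered libraries correlated at -0.254 to 0.132. Whether same-numbered libraries were handled together is not known. With the replicate number as a block, 423 genes were lower and 241 higher, 4 targets were lower, ABHD4 and RPRM missed 0.001 (adjusted p = 0.00121 and 0.00174), and CDKN1A had an adjusted p of 0.0269 and FAS of 0.0220 from edgeR. With 3 libraries per group, standard errors from 0.0483 to 0.0979 on the log2 scale, and 0.176 for FAS, set the smallest differences that these data could show.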
